A study of Mus musculus with 59 samples.

Results

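Brown adipose tissue (BAT) was profiled by RNA-seq, and 10 genes were followed in every mouse. Their products move calcium across the membrane of the endoplasmic or sarcoplasmic reticulum, or inhibit the pumps that do. They were chosen by name, as the rows of the SERCA pumps (Atp2a1, Atp2a2 and Atp2a3), the ryanodine receptors (Ryr1 and Ryr2), the pump inhibitors (Sln and Pln) and the IP3 receptors (Itpr1, Itpr2 and Itpr3). All 10 were found among the 55341 genes of the deposited count tables. The 59 samples were male C57BL/6J mice aged 8 to 12 weeks, in 3 experiments. In the thyroid hormone (TH) experiment, 4 wild-type (WT) and 5 BATKO mice received only propylthiouracil (PTU), which blocks thyroid hormone synthesis, in their food, for 2 weeks by the study's methods. All other mice of that experiment also had PTU and then a single intraperitoneal injection of T3 and T4. WT mice were taken 3, 6, 12 and 24 h later (4 mice at each time) and BATKO mice at 24 h (5 mice). In the temperature experiment, BATKO mice and controls (CTRL) spent 24 h at 4 °C (3 CTRL, 4 BATKO) or 30 °C (4 CTRL, 5 BATKO). In the diet experiment, 4 CTRL and 3 BATKO mice received a high-fat diet (HFD) and 4 CTRL and 2 BATKO mice chow, and the labels of all of them carry the note 3.5 d. The genetic change of BATKO mice, and how CTRL mice differ from WT mice, are not given in the sources used here, so that no targeted gene could be checked in these libraries.

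SERCA pumps use ATP to load calcium into the reticulum, and ryanodine and IP3 receptors let it out again. When release and reuptake run together, ATP is spent without net transport, and this futile calcium cycle is known as a source of heat that does not need UCP1 in skeletal muscle and in beige fat. SERCA1, encoded by Atp2a1, is the pump of fast skeletal muscle fibres, SERCA2 (Atp2a2) is the pump of heart and slow muscle and, as another isoform, of most other cells, and SERCA3 (Atp2a3) is found in non-muscle cells. Ryr1 encodes the release channel of skeletal muscle and Ryr2 that of the heart. The IP3 receptors open when receptors coupled to phospholipase C, such as alpha-1 adrenergic receptors, raise IP3.

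Sarcolipin (Sln) and phospholamban (Pln) are small membrane proteins that bind SERCA and lower its activity, and sarcolipin lets the pump burn ATP without moving calcium. Their reading frames are shown because they are the 2 members that encode inhibitors, and because both are short enough to be seen whole. The coding part of Sln lies at chr9:53853473-53853568 on the plus strand and has 96 bases. That of Pln lies at chr10:53343864-53344022 on the plus strand and has 159 bases. Both were read from GRCm38 with the GENCODE annotation, each in 1 unbroken coding part, with the start and stop codons included.
Sln: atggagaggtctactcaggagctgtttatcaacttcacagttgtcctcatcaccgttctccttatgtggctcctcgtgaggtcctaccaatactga
Pln: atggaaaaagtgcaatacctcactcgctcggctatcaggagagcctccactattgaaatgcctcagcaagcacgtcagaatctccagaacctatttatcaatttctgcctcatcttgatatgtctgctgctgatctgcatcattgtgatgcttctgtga

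The promoters of 7 members were found in a RefSeq table (GRCm38.p6, 250 bases before to 50 bases after the start of the gene). Atp2a2, Itpr1 and Sln have no entry in it. The promoters of Atp2a1 and Itpr2 are shown because these genes carry the contrast described below, Atp2a1 being the member most closely tied to skeletal muscle RNA and Itpr2 the member with the largest called increase after TH. The Atp2a1 promoter lies at chr7:126463024-126463323 and that of Itpr2 at chr6:146502174-146502473, both on the minus strand. Capitals mark matches, on either strand, to AGGTCA, the half-site read by thyroid hormone and other nuclear receptors, and to CAGCTG, an E-box read by muscle factors such as MyoD.
Atp2a1: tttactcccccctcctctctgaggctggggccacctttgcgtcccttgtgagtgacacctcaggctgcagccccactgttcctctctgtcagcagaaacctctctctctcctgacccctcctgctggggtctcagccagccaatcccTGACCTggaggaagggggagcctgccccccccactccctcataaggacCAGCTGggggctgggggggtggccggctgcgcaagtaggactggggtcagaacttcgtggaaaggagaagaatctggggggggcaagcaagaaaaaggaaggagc
Itpr2: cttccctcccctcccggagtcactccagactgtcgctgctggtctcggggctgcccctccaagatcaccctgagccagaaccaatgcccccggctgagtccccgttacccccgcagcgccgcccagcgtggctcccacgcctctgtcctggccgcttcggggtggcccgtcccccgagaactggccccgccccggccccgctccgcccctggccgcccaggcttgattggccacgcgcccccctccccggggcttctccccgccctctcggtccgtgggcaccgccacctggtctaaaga

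Atp2a1 held 1 match to each motif, the AGGTCA match being on the opposite strand (TGACCT), and Itpr2 held none of either. Of the other 5 promoters, Ryr2 held 1 AGGTCA, Pln held 1 CAGCTG, and Ryr1, Atp2a3 and Itpr3 held neither. Among 32851 promoters of the same length, 16.3% held AGGTCA and 16.3% held CAGCTG. A match is only a run of letters, and its absence says that the letters are not in this window.

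The counts of several members, given here with their GRCm38 gene spans, are uncertain where another gene overlaps them. Pln (chr10:53337667-53345987) shares 1785 of its 2759 exon bases with the antisense genes Cep85l and Gm47644. Atp2a1 (chr7:126445858-126463108) shares 763 of 3477 exon bases with Rabep2, Ryr1 (chr7:29003344-29125179) shares 914 of 21838 with Gm44408 and Gm26604, Itpr1 (chr6:108213096-108551109) shares 289 of 18319, Itpr3 (chr17:27057304-27122223) shares 233 of 9019 and Atp2a2 (chr5:122453513-122502225) shares 83 of 6081. The strand setting of the counting is not given in the sources used here, so that reads of these stretches cannot be assigned to one partner. Itpr2 (chr6:146108299-146502223, 14802 exon bases), Atp2a3 (chr11:72961169-72993044, 5281 bases), Ryr2 (chr13:11553102-12106945, 28790 bases) and Sln (chr9:53850164-53854560, 1318 bases) share none.

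The total count per mouse ranged between 7805938 and 18073627 in the TH experiment, 8008348 and 12887313 in the temperature experiment, and 7612059 and 11533900 in the diet experiment. Levels are given as CPM, which divides a count by the library size after TMM scaling, set within each experiment, so that levels set side by side across experiments were normalized separately. Brown adipocyte markers were high in every mouse, their 8 genes summing to between 5949 and 28250 CPM. Endothelial and smooth muscle markers were present throughout, while the 6 heart muscle markers summed to at most 13.7 CPM, and the 4 nerve markers to at most 1.65 CPM. Skeletal muscle RNA, judged by Acta1 (skeletal muscle actin) and Ckm (muscle creatine kinase), differed widely between mice of the same group and did not pass the test in any of the 16 comparisons. Since the tissue was sequenced in bulk, fewer cells of a type and less RNA per cell cannot be told apart. The mice were separate animals by their labels, and no pair of libraries of a group agreed within sampling noise.

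Atp2a1 and Ryr1 followed skeletal muscle RNA closely from mouse to mouse, and Sln did so less closely. Acta1 ranged from 0.857 to 780 CPM in the TH experiment, from 0.240 to 5025 CPM in the temperature experiment and from 0.530 to 976 CPM in the diet experiment. The wide span is best seen within a single group. In the 5 BATKO mice at 30 °C, Acta1 was at 4098, 0.556, 0.696, 266 and 5025 CPM, and Atp2a1, in the same order, was at 1123, 0.835, 0.522, 96.5 and 1352 CPM. Ryr1 in these mice was at 43.5, 0, 0.261, 2.62 and 46.3 CPM, and Sln at 11.1, 0, 0, 0.175 and 3.39 CPM. The same pair of mice thus held nearly all of the SERCA1, RYR1 and sarcolipin RNA of the group. Sln matched less well in the TH experiment, where 1 of the 5 mice with the most Sln was among the 5 with the most Acta1. That number was 4 for Atp2a1 and 5 for Ryr1 there. For Sln it was 5 in the temperature experiment and 4 in the diet experiment. In the 4 CTRL mice on chow, Acta1 was at 0.530, 57.3, 976 and 688 CPM, and Atp2a1 at 0, 20.2, 332 and 234 CPM.

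Across mice, with the mean of each group removed, log2 Atp2a1 followed the mean log2 level of Acta1 and Ckm with r = 0.996 (rho = 0.996, n = 30) in the TH experiment, r = 0.995 (rho = 0.968, n = 16) in the temperature experiment and r = 0.994 (rho = 0.995, n = 13) in the diet experiment. For Ryr1, r was 0.948, 0.971 and 0.944, and rho was 0.968, 0.938 and 0.960. For Sln, r was 0.710, 0.901 and 0.711, and rho was 0.697, 0.923 and 0.709. A permutation test (100000 permutations within groups, two-sided) gave p = 1e-05 for Atp2a1 in the TH experiment, the smallest that this number of permutations can give, and p = 1e-05 and 0.00014 in the others. Of 30 relations (10 members in 3 experiments), those of Atp2a1 and Ryr1 had adjusted p between 0.0001 and 0.00107 for r, those of Sln 0.00048, 0.00409 and 0.1, and that of Atp2a2 in the temperature experiment 0.0489 (r = 0.650). Without the 2 mice farthest from the median muscle level, r stayed between 0.941 and 0.995 for Atp2a1 and Ryr1. It lay between 0.572 and 0.887 for Sln. For Atp2a2 in the temperature experiment it fell to 0.483 (adjusted p = 0.263). With the median of 14 other skeletal muscle genes, r of Atp2a2 over all 16 mice was 0.613 (adjusted p = 0.0744). The relation of Atp2a2 thus stayed positive but did not pass in either alternative. In the main test, the other relations had an adjusted p of at least 0.1.

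**Figure D1:**
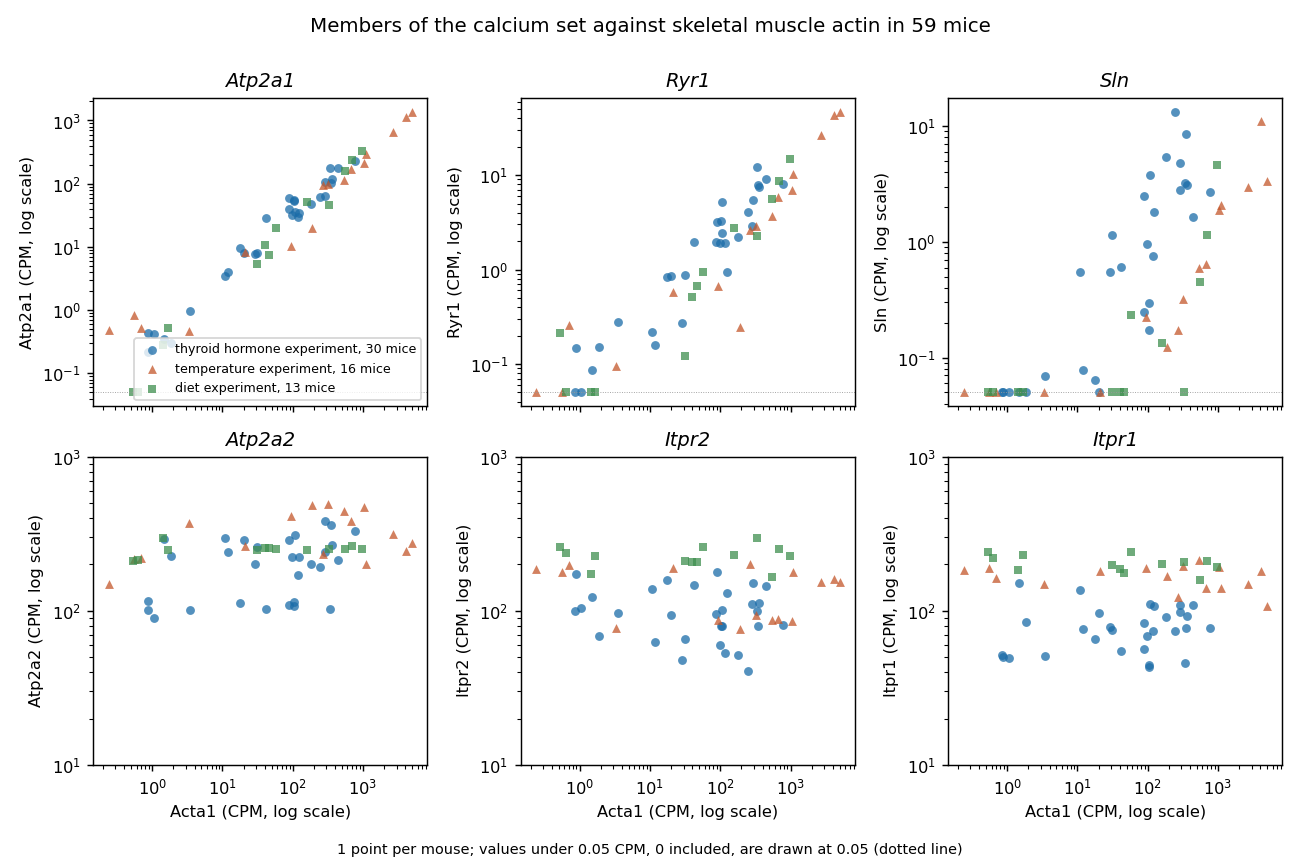
Level of 6 members (vertical axes, CPM, log scale) against Acta1 (horizontal axes, CPM, log scale), with 1 point for each of the 59 mice and a symbol for each experiment. Atp2a1 and Ryr1 climb with Acta1, and Sln does so with more scatter and with points at 0 up to 331 CPM of Acta1. Atp2a2, Itpr2 and Itpr1 show no climb as steep as these.

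In the 12 mice with at most 2 CPM of Acta1, a limit set after the values were seen, Sln had 0 counts in every mouse. With 3 counts taken as what a count of 0 allows, which covers counting error only, this leaves room for up to between 0.21 and 0.428 CPM per library. Ryr1 had 0 to 3 counts and Atp2a1 0 to 9 counts in these mice. The other pump and the IP3 receptors remained well measured there, with Atp2a2 between 1291 and 3343 counts, Itpr2 between 910 and 2467 and Itpr1 between 686 and 2307. Atp2a3 had 70 to 196 counts, Pln 17 to 67 and Itpr3 14 to 53. Ryr2 had 0 to 8 counts.

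Per kilobase of exon, the order of the median levels in these 12 mice was Atp2a2 (35.4 CPM per kb), Itpr2 (11.9), Itpr1 (9.45), Atp2a3 (1.86), Pln (1.60), Itpr3 (0.361), Atp2a1 (0.110) and Ryr2 (0.0135), with Ryr1 and Sln at 0. Pooled over these mice, the ranges of neighbours in this order overlapped. Within each of the 3 experiments, the Atp2a2 range lay above that of Itpr2, and the Itpr1 range above that of Atp2a3, with no overlap. The order of Atp2a3 and Pln was the other way in the 4 mice of the diet experiment, with medians of 1.91 and 2.26 CPM per kb. SERCA2 was thus the main pump transcript and the IP3 receptors 1 and 2 were the main release channel transcripts where muscle RNA was near its floor.

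Counts were also set against Acta1 within a library. In the 23 mice of the TH experiment with at least 100 Acta1 counts, Atp2a1 had between 22.6 and 68.6 counts for every 100 Acta1 counts (median 33.6). In the 12 such mice of the temperature experiment this ratio was between 10.5 and 40.3, and in the 9 of the diet experiment between 13.9 and 35.3. Ckm itself spanned a like range, 27.2 to 81.1 counts for every 100 Acta1 counts in the TH experiment. Sln spanned 0 to 5.35 counts in the same mice of the TH experiment, and Atp2a2 30.8 to 2020 counts, so that neither kept a fixed ratio to Acta1. Ryr1 spanned 0.765 to 4.93 counts there (6.44-fold, against 3.03-fold for Atp2a1). In the temperature experiment Ryr1 spanned 0.131 to 2.78 counts (21.2-fold, against 3.85-fold for Atp2a1). The ratio of Ryr1 was thus less steady than that of Atp2a1.

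Ryr2, the channel of the heart, had between 0 and 25 counts per mouse and a mean normalized count of 5.91, 3.94 and 3.96 in the 3 experiments, under the limit of 10 that a gene had to pass. It was therefore tested in no comparison. Sln, with a mean of 4.39, was under the limit in the diet experiment. The other 8 members passed in all 3 experiments. Itpr3, Pln and Ryr1 passed with mean counts of 24.0 to 102, so that their changes were measured less finely than those of Atp2a2, Itpr1 and Itpr2.

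TH raised 4 members in WT mice, Atp2a2, Atp2a3, Itpr1 and Itpr2. Differences between time points were not tested. Of the 8 brown adipocyte markers, 3, 3, 2 and 1 were called higher and 0, 1, 4 and 4 lower at 3, 6, 12 and 24 h (median log2 -0.55 at 24 h), and 4 were called higher in the difference between genotypes at 24 h. The part of these markers in the changes of the members was not tested. A member counts as called when its p from edgeR's quasi-likelihood fit, adjusted by the Benjamini-Hochberg method over all tested genes, is under 0.05. At 3 h, 2 of 9 tested members were called (Atp2a3 higher and Sln lower), where 9.19% of all tested genes were (1195 genes, and 684 without WT PTU mouse B3). By 6 h there were 3 called members, beside 23% of all genes. The 12 h comparison called 4 members and 25.7% of all genes, and the 24 h comparison 4 members and 32.7% of all genes. The members called from 6 h on were all higher. With 9 members, 1 or 2 genes separate their shares from these backgrounds, and nothing is read from the shares.

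Atp2a2 was at 192, 201, 172 and 202 CPM on PTU alone. The 3 h mice had 242, 227, 224 and 259 CPM and the 6 h mice 327, 288, 358 and 381 CPM. The 12 h mice had 310, 298, 291 and 287 CPM and the 24 h mice 223, 215, 267 and 241 CPM. Every injected WT mouse was above every WT mouse on PTU alone, and the mean was highest at 6 h. The change was 1.75-fold at 6 h (log2 0.81 ± 0.10, SE, adjusted p = 6.24e-06), 1.56-fold at 12 h (adjusted p = 5.57e-05) and 1.23-fold at 24 h (adjusted p = 0.0237). At 3 h the 1.23-fold difference did not pass (adjusted p = 0.0652). The call at 24 h was lost without WT PTU mouse B2 or B4, or 24 h mouse B27 (adjusted p between 0.0522 and 0.0804) and without the limit on mean counts (0.0823). Atp2a2 was called at 3 h as well with DESeq2 (log2 0.29, adjusted p = 0.0320) and in the fit of all 30 TH mice (log2 0.31, adjusted p = 0.0372).

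Itpr2, the IP3 receptor that is most sensitive to IP3, had a higher mean at each later time. Its levels were 40.4, 47.8, 53.5 and 52.0 CPM on PTU alone and 63.2, 68.3, 60.0 and 65.6 at 3 h. The 6 h mice had 80.9, 95.5, 80.1 and 110 CPM. In the 12 h mice it was at 102, 139, 123 and 93.8 CPM, and the 24 h mice had 131, 144, 112 and 151 CPM. No injected mouse reached down to the PTU mice. At 3 h the 1.31-fold difference did not pass (adjusted p = 0.0716, and 0.0468 with only the compared groups in the fit). The change was 1.87-fold at 6 h (adjusted p = 5.27e-05), 2.37-fold at 12 h (adjusted p = 6.45e-07) and 2.77-fold at 24 h (log2 1.47 ± 0.13, SE, adjusted p = 5.29e-08), and these calls held under every alternative run.

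Itpr1, the most widespread IP3 receptor, was called at 12 h and 24 h. It was at 74.2, 78.2, 74.5 and 90.6 CPM on PTU alone, and its groups at 3 h (68.7 to 84.4 CPM) and 6 h (77.6 to 97.8 CPM) overlapped with it. At 12 h it was at 111, 137, 152 and 97.2 CPM (1.58-fold, adjusted p = 0.000421), and at 24 h at 108, 109, 92.5 and 109 CPM (1.32-fold, adjusted p = 0.0175). Both later groups lay wholly above the PTU mice. Without WT PTU mouse B2 the adjusted p at 24 h was 0.0540.

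Atp2a3, the pump of non-muscle cells, was a low transcript that was higher at every time. It was at 3.53, 3.93, 4.05 and 3.78 CPM on PTU alone, and at 6.61, 6.01, 5.08 and 6.64 CPM at 3 h (1.57-fold, adjusted p = 0.00596). At 6 h it was at 5.28, 5.72, 5.68 and 6.04 CPM (1.47-fold, adjusted p = 0.00799), and at 12 h at 5.32, 8.68, 7.93 and 7.35 CPM (1.91-fold, adjusted p = 5.41e-05). At 24 h it was at 4.76, 5.17, 5.20 and 5.16 CPM (1.32-fold, adjusted p = 0.0380). No injected mouse overlapped with the PTU mice. The call at 3 h was lost when the level of Acta1 and Ckm entered the fit (log2 0.52 against 0.65, adjusted p = 0.0540), and that at 24 h was lost with DESeq2 (adjusted p = 0.0708), without the limit on mean counts (0.147), with only the compared groups in the fit (0.0568) and without any of 6 single mice (WT PTU B2, B3 and B5, and 24 h B26, B27 and B28, adjusted p between 0.0625 and 0.100).

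**Figure D2:**
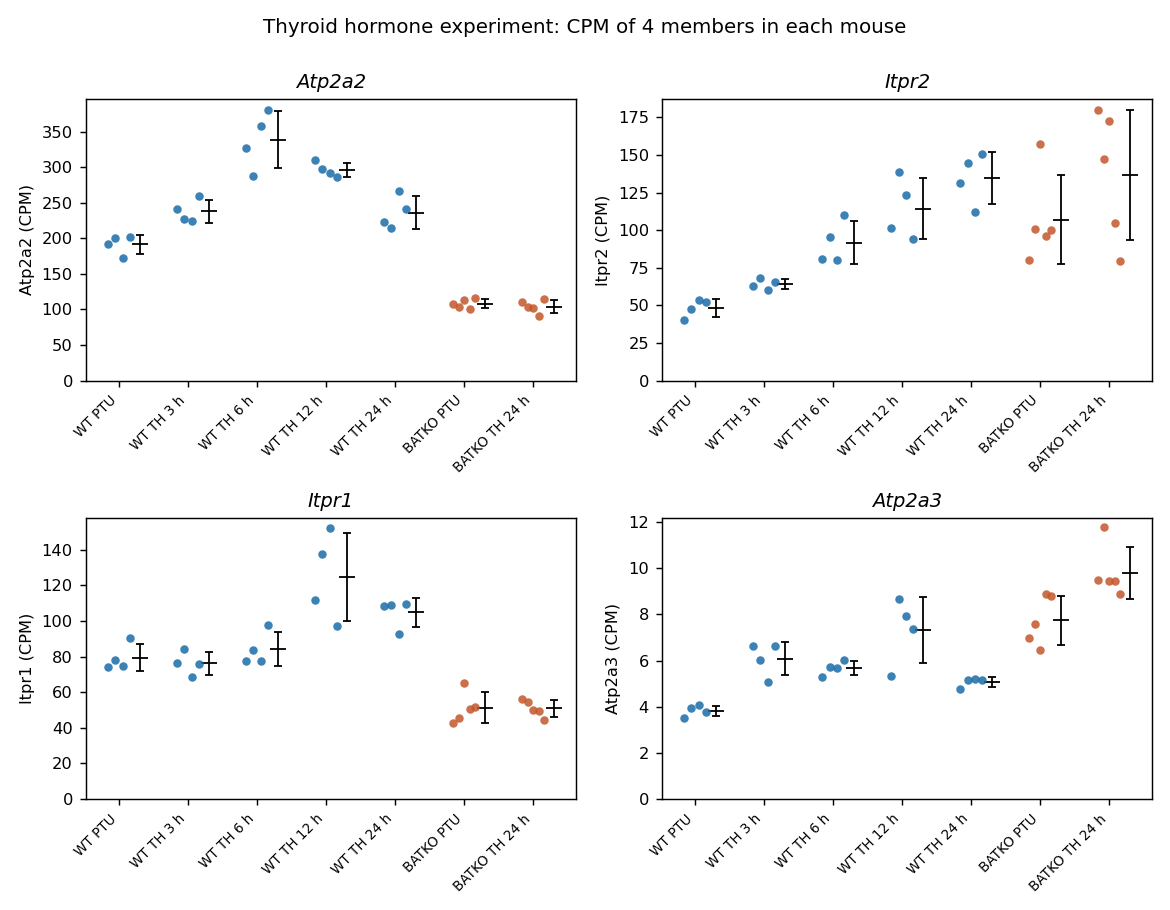
Level (CPM, vertical axes) of Atp2a2, Itpr2, Itpr1 and Atp2a3 in the TH experiment, with 1 point per mouse, WT mice in blue and BATKO mice in orange; horizontal and vertical bars are the mean and SD of a group. In WT mice Atp2a2 is highest at 6 h, Itpr1 and Atp2a3 at 12 h and Itpr2 at 24 h. The BATKO groups overlap for all 4 genes, those of Atp2a3 only at about 8.87 CPM.

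Among the other members, Sln at 3 h was the only call in WT mice. Sln was at 13.2, 0.548, 0.760 and 5.36 CPM on PTU alone and at 0.0787, 0, 0.953 and 1.14 CPM at 3 h, so that the groups overlapped. Its 8.77-fold lower level had an adjusted p of 0.04998, against 0.281 without WT PTU mouse B2, 0.0878 without B5, 0.0617 to 0.121 without any single 3 h mouse, 0.0893 with DESeq2 and 0.524 with the level of Acta1 and Ckm in the fit. Acta1 was at 246, 28.6, 117 and 182 CPM on PTU alone and 12.0, 1.88, 98.5 and 31.3 CPM at 3 h (log2 -2.01, adjusted p = 0.192), also a lower mean. Atp2a1 was 3.40-fold lower at 3 h (adjusted p = 0.230), 2.92-fold higher at 6 h (0.201), 2.96-fold lower at 12 h (0.218) and 3.00-fold higher at 24 h (0.166). Its sign was that of Acta1 at each time. With the level of Acta1 and Ckm in the fit, its log2 difference was 0.10, 0.36, 0.27 and 0.47 at the 4 times, and those at 6 h and 24 h passed (adjusted p = 0.0448 and 0.00711). Without mouse B19, Atp2a1 and Sln were called lower at 12 h (log2 -3.30 and -4.74, adjusted p = 0.0260 and 0.0110). Sln also passed at 12 h without the limit on mean counts (adjusted p = 0.0201) and at 24 h with the level of Acta1 and Ckm in the fit (log2 -1.62, adjusted p = 0.0433). Atp2a1 at 24 h passed with only the compared groups in the fit (adjusted p = 0.0456) and without the limit on mean counts (0.0423).

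Pln was at 2.45, 2.92, 3.67 and 2.90 CPM on PTU alone and at 2.33, 1.75, 2.07 and 1.74 CPM at 6 h. The 6 h mice were all lower, by 1.53-fold, but the difference did not pass (adjusted p = 0.0909, and 0.0442 when only these groups were fitted). At the other times its groups overlapped, with adjusted p between 0.223 and 0.817. Itpr3, an IP3 receptor of epithelial and secretory cells, was at 0.537 to 1.96 CPM on PTU alone and at 0.466 to 2.29 CPM in injected WT mice, with adjusted p between 0.533 and 0.963. Ryr1 gave adjusted p between 0.112 and 0.348, and at 24 h it passed without the limit on mean counts (log2 1.44, adjusted p = 0.0264) and without mouse B24 (log2 1.78, adjusted p = 0.0383).

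In BATKO mice no member was called at 24 h, with edgeR or with DESeq2, where 0% of 14178 tested genes were called by either, and 1 member (Atp2a3) and 673 of all tested genes had an unadjusted p under 0.05. Atp2a2 was at 108, 104, 113, 101 and 116 CPM on PTU alone and at 110, 103, 101, 90.3 and 114 CPM after TH, a log2 difference of -0.06 with a 95% interval from -0.24 to 0.11. Itpr2 was at 80.2, 100, 158, 96.3 and 100 CPM on PTU alone and at 180, 147, 172, 105 and 79.6 CPM after TH (log2 0.35, 95% interval -0.0062 to 0.71, adjusted p = 0.963). Both groups of Itpr2 spread widely and overlapped. Atp2a3 was at 6.97, 7.60, 6.46, 8.87 and 8.79 CPM on PTU alone and at 9.47, 11.8, 9.45, 9.45 and 8.87 CPM after TH (log2 0.34, unadjusted p = 0.00610 in edgeR, adjusted p = 0.963). Itpr1 differed by a log2 of -0.0098, with a 95% interval from -0.25 to 0.23.

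The difference between the genotypes in the 24 h response was tested as an interaction in a fit of all 30 mice, where 12.3% of all tested genes and 1 of 9 members were called. That member was Itpr2, whose response was smaller in BATKO mice by 1.12 on the log2 scale (-1.12 ± 0.27, SE, adjusted p = 0.00590). It remained called under all 24 alternatives, with log2 values between -1.24 and -0.94. The difference of Atp2a2 was -0.36 ± 0.13 (SE, adjusted p = 0.0573), and it passed with DESeq2 (adjusted p = 0.0335), with only genes of a mean count above 50 (0.0433) and without each of 3 single mice (0.0408 to 0.0499). That of Itpr1 was -0.41 (adjusted p = 0.118) and that of Atp2a3 -0.07 (adjusted p = 0.865). The response of Atp2a1 differed by -2.37 with a 95% interval from -5.65 to 0.91, which leaves its direction undecided.

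On PTU alone, the ranges of WT and BATKO mice lay apart for several members. The design sets each genotype against its own PTU mice, and these levels are given with no test. Atp2a2 was at 172 to 202 CPM in WT and 101 to 116 CPM in BATKO mice, and Itpr1 at 74.2 to 90.6 and 43.0 to 65.4 CPM. Itpr2 lay the other way, at 40.4 to 53.5 CPM in WT and 80.2 to 158 CPM in BATKO mice, as did Atp2a3 (3.53 to 4.05 and 6.46 to 8.87 CPM) and Itpr3 (0.537 to 1.96 and 2.56 to 3.15 CPM). Ucp1, the uncoupling protein of brown fat, was at 4496 to 6121 CPM in WT and 947 to 1744 CPM in BATKO mice. Genotype and any difference in how the libraries were made cannot be told apart here.

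Cold raised Atp2a2 and lowered Itpr2 in both genotypes. Pln was also called lower in both, but the BATKO call was lost in 4 of 15 alternatives. Reads of the exon stretches that Pln shares with antisense genes cannot be assigned to one partner. In CTRL mice at 4 °C against 30 °C, 4 of 9 tested members were called, against 49.1% of all tested genes, with Atp2a2 and Atp2a3 higher and Itpr2 and Pln lower. In BATKO mice 3 of 9 were called against 40.3%, the same ones without Atp2a3. The 5340 genes behind the BATKO share became 3494 without the mice above 1000 CPM of Acta1, described below. The members' shares were near the background. Over the same mice, the 8 brown adipocyte markers summed to between 17151 and 28250 CPM at 4 °C and between 5949 and 7426 CPM at 30 °C. Much of this sum was Ucp1, with means of 15563 and 736 CPM in CTRL and 10089 and 935 CPM in BATKO mice. Of the 8 markers, 6 were called higher and 1 lower in CTRL mice, and 6 and 0 in BATKO mice. The 4 smooth muscle markers (Myh11, Acta2, Tagln and Cnn1) were also higher at 4 °C, with sums of 164 to 232 CPM against 94.4 to 113 CPM in CTRL mice (4 of 4 called) and 145 to 240 CPM against 99.0 to 176 CPM in BATKO mice (2 of 4 called). The part of these markers in the changes of the members was not tested.

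Atp2a2 was at 409, 486 and 497 CPM in CTRL mice at 4 °C and at 149, 203, 313 and 263 CPM at 30 °C. In BATKO mice it was at 447, 385, 469 and 372 CPM at 4 °C and at 246, 216, 220, 233 and 276 CPM at 30 °C. Every mouse at 4 °C was above every mouse at 30 °C. The change was 2.00-fold in CTRL mice (log2 1.00 ± 0.20, SE, adjusted p = 0.000501) and 1.76-fold in BATKO mice (0.81 ± 0.17, adjusted p = 0.00141), and both calls held under every alternative. Without the 5 mice above 1000 CPM of Acta1 (2 CTRL and 2 BATKO mice at 30 °C, and 1 BATKO mouse at 4 °C), an alternative added after the data were seen, the CTRL change was 1.17 on the log2 scale (adjusted p = 0.00157).

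Itpr2 went the other way with little spread. It was at 87.0, 75.7 and 93.6 CPM in CTRL mice at 4 °C and at 186, 180, 154 and 191 CPM at 30 °C, and in BATKO mice at 86.7, 88.5, 85.7 and 76.9 CPM at 4 °C and at 162, 178, 199, 202 and 153 CPM at 30 °C. The groups at 4 °C lay wholly under those at 30 °C. Itpr2 was 2.08-fold lower in CTRL mice (log2 -1.06 ± 0.13, SE, adjusted p = 9.58e-06) and 2.11-fold lower in BATKO mice (-1.08 ± 0.12, adjusted p = 4.28e-06). These calls also held under every alternative. The gene thus rose after TH in WT mice and fell in the cold in CTRL and BATKO mice.

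Pln was at 2.14, 2.21 and 1.61 CPM in CTRL mice at 4 °C and at 5.27, 5.68, 4.82 and 4.47 CPM at 30 °C, with no overlap. It was 2.54-fold lower (log2 -1.35 ± 0.30, SE, adjusted p = 0.00151). In BATKO mice it was at 2.69, 1.30, 3.62 and 1.98 CPM at 4 °C and at 4.47, 5.75, 3.57, 3.05 and 3.72 CPM at 30 °C, and here the groups overlapped (1.71-fold lower, adjusted p = 0.0237). The BATKO call was lost without mouse 8 or 12 at 4 °C or mouse 14 at 30 °C (adjusted p between 0.0650 and 0.0812), and when only these groups were fitted (0.0596).

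Atp2a3 was at 20.3, 24.7 and 15.8 CPM in CTRL mice at 4 °C and at 15.6, 13.0, 9.48 and 11.1 CPM at 30 °C (1.64-fold, adjusted p = 0.0105). The lowest mouse at 4 °C and the highest at 30 °C were nearly level. The call was lost without CTRL mouse 2 at 4 °C (adjusted p = 0.0732) and without the mice above 1000 CPM of Acta1 (adjusted p = 0.0850). In BATKO mice the groups overlapped (1.25-fold, adjusted p = 0.178). Itpr1 was at 169 to 196 CPM in CTRL mice at 4 °C and 141 to 184 CPM at 30 °C (adjusted p = 0.494), and at 140 to 214 and 107 to 191 CPM in BATKO mice (adjusted p = 0.421). Itpr3 stayed between 2.59 and 4.92 CPM over all 16 mice, with adjusted p of 0.432 and 0.571.

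**Figure D3:**
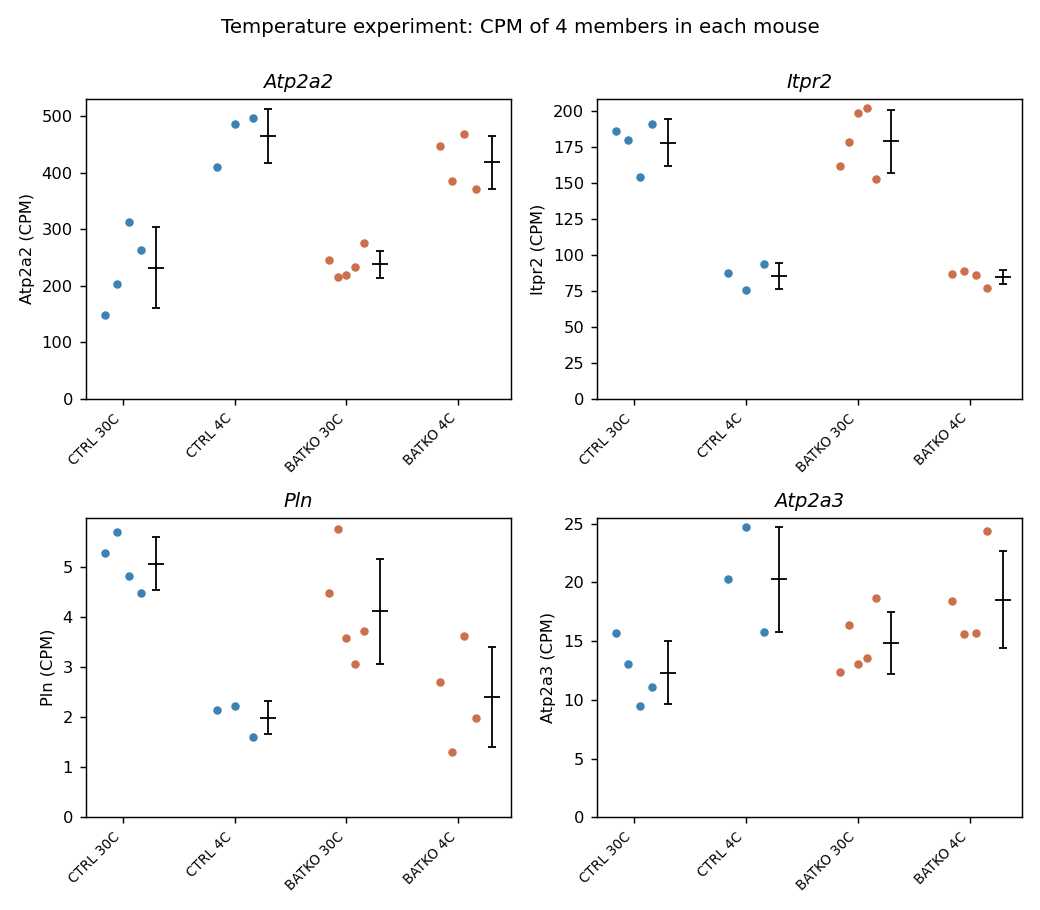
Level (CPM, vertical axes) of Atp2a2, Itpr2, Pln and Atp2a3 after 24 h at 30 °C or 4 °C, with 1 point per mouse, CTRL in blue and BATKO in orange; horizontal and vertical bars are the mean and SD of a group. Atp2a2 is higher and Itpr2 lower in every mouse at 4 °C than in every mouse at 30 °C of the same genotype, while the Pln groups of BATKO mice overlap.

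The sign of the Atp2a1 and Ryr1 differences in the cold comparison depended on which mice were fitted. Atp2a1 was at 10.3, 19.7 and 101 CPM in CTRL mice at 4 °C and at 0.479, 297, 651 and 8.45 CPM at 30 °C, and Acta1 in the same mice was at 94.1, 188 and 319 CPM and at 0.240, 1101, 2681 and 21.0 CPM. The fitted difference of Atp2a1 was -2.46 on the log2 scale with a 95% interval from -6.88 to 1.97 (adjusted p = 0.344). Without the 5 mice above 1000 CPM of Acta1 it turned to 3.32 (adjusted p = 0.224), and with the level of Acta1 and Ckm in the fit it was -0.72 (adjusted p = 0.0304). In BATKO mice the corresponding values were -2.04, 1.55 and -0.61, with adjusted p of 0.380, 0.487 and 0.0506. Ryr1 turned in the same way, from -2.83 to 2.22 in CTRL mice and from -2.18 to 1.70 in BATKO mice, and none of these passed. The mice left out were picked by Acta1, which Atp2a1 and Ryr1 followed, and most were at 30 °C. Nothing is therefore read from these turns. Sln had 2, 1 and 3 counts in CTRL mice at 4 °C and 0, 26, 36 and 0 counts at 30 °C, and its adjusted p was 0.313 in CTRL and 0.255 in BATKO mice. Its difference was below 0 and did not pass in the fits that tested it (log2 -2.86 to -0.21 in CTRL and -2.86 to -0.17 in BATKO mice), but without the 5 mice above 1000 CPM of Acta1 its counts were too low to be tested.

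No member was called between BATKO and CTRL mice at either temperature. At 4 °C 2.16% of all tested genes were called, at 30 °C 0.00754%, and in the interaction of genotype and temperature 1.12%, and 0 of the 9 members were among them with edgeR or DESeq2, and 0 had an unadjusted p under 0.05. These backgrounds depended on single mice. The 286 genes called at 4 °C ranged from 53 (without CTRL mouse 2 at 4 °C) to 565 (without CTRL mouse 5 at 4 °C), and the 149 of the interaction from 5 (without CTRL mouse 1 at 4 °C) to 907 (without CTRL mouse 5 at 4 °C). The difference of Atp2a2 was -0.15 at 4 °C (95% interval -0.57 to 0.27) and 0.04 at 30 °C (-0.33 to 0.40). That of Itpr2 was -0.02 (-0.29 to 0.26) and 0.0079 (-0.23 to 0.25), the narrowest intervals among the 9 members. The response of Itpr2 to cold differed between the genotypes by -0.02 (-0.39 to 0.34), and that of Atp2a2 by -0.19 (-0.74 to 0.37).

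**Figure D4:**
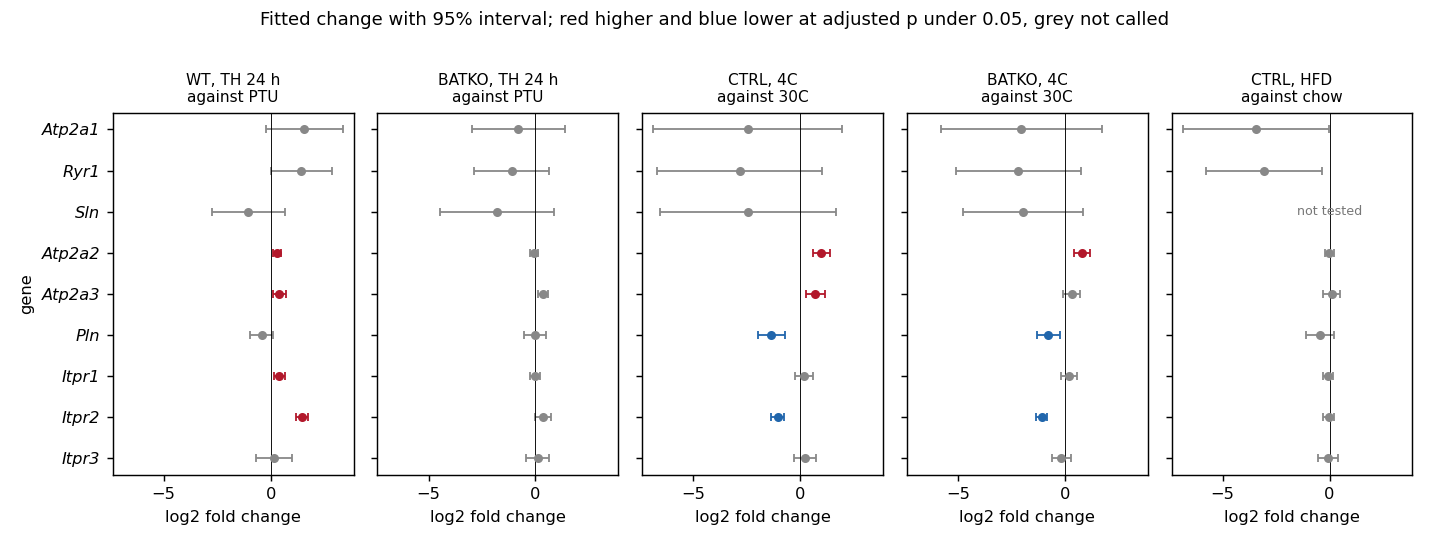
Fitted log2 fold change (horizontal axes) of 9 members in 5 comparisons; points are the estimates, bars the 95% intervals, and red, blue and grey mark called higher, called lower and not called. The intervals of Atp2a1, Ryr1 and Sln are several times as wide as those of Atp2a2, Itpr1 and Itpr2 in every panel in which they were tested.

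The high-fat diet called none of the 8 members tested, with edgeR or DESeq2. In CTRL mice 3.94% of all tested genes were called, and in BATKO mice 0.0696%. The 9 genes behind the BATKO share became 226 with DESeq2 and 336 without the limit on mean counts. They became 66 with only the compared groups in the fit and 27 with the level of Acta1 and Ckm in it. The 509 genes behind the CTRL share became 321 with only the compared groups in the fit and 166 to 255 without mouse 10 or 11 on HFD or mouse 2 or 4 on chow. Between BATKO and CTRL mice 0% were called on HFD, 0% on chow and 0% in the interaction, where 691, 1024 and 740 of 12932 genes had an unadjusted p under 0.05 in edgeR and DESeq2 called 9, 33 and 0. Without the limit on mean counts edgeR called 59, 290 and 216 genes, and with only the compared groups in the fit it called 114 on chow. Among the members, 2 had an unadjusted p under 0.05 in CTRL mice (Atp2a1 and Ryr1), 1 in BATKO mice (Itpr3), 1 between the genotypes on HFD (Itpr2), and 0 on chow and in the interaction.

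Atp2a2 was at 214, 252, 255 and 248 CPM in CTRL mice on HFD and at 212, 250, 251 and 262 CPM on chow. In BATKO mice it was at 296, 256 and 252 CPM on HFD and at 247 and 248 CPM on chow. The CTRL difference was -0.0084 on the log2 scale, with a 95% interval from -0.22 to 0.20, so that a change of the size seen in the cold lay outside it. Itpr1 differed by -0.09 (-0.32 to 0.15) and Itpr2 by -0.05 (-0.30 to 0.20) in CTRL mice. Atp2a3 was at 8.16 to 15.2 CPM in CTRL mice on HFD and 8.08 to 11.6 CPM on chow (adjusted p = 0.773). Pln was at 6.48, 2.89, 2.81 and 5.94 CPM on HFD and at 7.10, 5.02, 4.30 and 7.87 CPM on chow, and its groups overlapped (adjusted p = 0.445).

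Itpr2 was at 238, 296, 208 and 228 CPM in CTRL mice on HFD and at 174, 208 and 165 CPM in BATKO mice on HFD. BATKO mouse 14 and CTRL mouse 10 were nearly level at 208 CPM. The difference was -0.41 on the log2 scale (95% interval -0.68 to -0.14), with an unadjusted p of 0.00592 and an adjusted p of 0.884 in edgeR. On chow it was -0.18 (-0.49 to 0.13). Itpr3 was at 3.56, 4.91 and 5.66 CPM in BATKO mice on HFD and at 2.51 and 3.41 CPM on chow, which did not pass either (log2 0.67, adjusted p = 0.304).

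Atp2a1 was at 0, 45.9, 7.53 and 0.516 CPM in CTRL mice on HFD, and Ryr1 at 0, 2.26, 0.674 and 0 CPM, against 0.212, 0.935, 14.9 and 8.71 CPM on chow. Their fitted differences from chow were -3.44 and -3.05 on the log2 scale (adjusted p = 0.230 and 0.183), beside -2.18 for Acta1 and -3.74 for Ckm (adjusted p = 0.482 and 0.207). With the level of Acta1 and Ckm in the fit they were -0.42 and -0.51 (adjusted p = 0.289 and 0.627). Sln had 0 counts in all 4 CTRL mice on HFD and 0, 2, 43 and 11 counts on chow, the latter 2 being the mice with the most Acta1. Without the limit on the mean count, Atp2a1, Ryr1 and Sln were called in this comparison, with adjusted p of 0.000949 and 0.000812 for Atp2a1 and Ryr1.

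**Figure D5:**
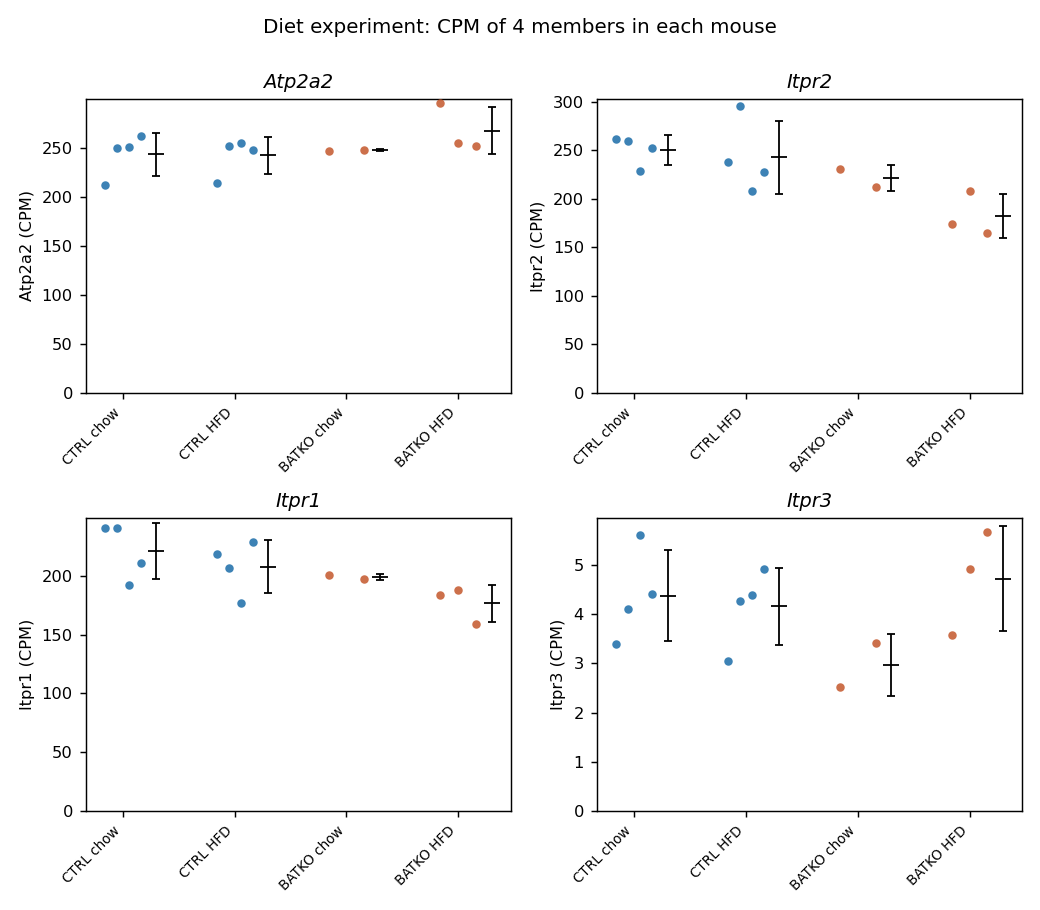
Level (CPM, vertical axes) of Atp2a2, Itpr2, Itpr1 and Itpr3 in the diet experiment, with 1 point per mouse, CTRL in blue and BATKO in orange; horizontal and vertical bars are the mean and SD of a group. The diet groups of CTRL mice overlap for all 4 genes.

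Genes with log2 levels most like those of a member were sought among 8483 genes over all 59 mice, after the mean of each experiment was removed. Only members above the count limit in all 3 experiments were used, so that Sln and Ryr2 were left out. The points share groups and libraries, so that these correlations are a description. Atp2a1 was most like Myh4 (r = 0.988), Tnnc2 (0.987) and Tnni2 (0.984), which encode proteins of fast muscle filaments. Ryr1 was most like Casq1 (0.967), Actn3 (0.961) and Myh2 (0.957), also muscle genes. Atp2a2 was most like Slc25a51 (0.958), the mitochondrial NAD carrier, Zfp672 (0.957) and Rnf185 (0.941), a ubiquitin ligase of the reticulum. Itpr1 was most like Ak3 (0.869), Fbxo3 (0.865) and Fam120a (0.859), and Itpr2 like Ampd2 (0.855), Cgnl1 (0.846) and Rbm38 (0.827). Atp2a3 followed S100a1 (0.786), Col4a2 (0.772) and Hspa8 (0.757), Pln followed Erbb4 (0.739), Nxpe4 (0.730) and Polr3gl (0.699), and Itpr3 followed Rfng (0.810), Gon4l (0.808) and Gpihbp1 (0.800). None of the 3 genes listed for Atp2a2, or for any IP3 receptor, encodes a muscle filament protein.

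A wider list of 74 calcium handling genes, the members left out, gives the surroundings of these changes. Of 72 listed in the tables, 62 were tested in the TH experiment. Called higher and lower were 3 and 7 genes at 3 h (9.19% of all tested genes called), 14 and 14 at 6 h (23%). The later comparisons called 8 and 11 (12 h, 25.7% of all genes) and 13 and 12 (24 h, 32.7% of all genes). The median log2 change of the list over the course was -0.15, 0.08, 0.03 and 0.12, and that over all tested genes 0.0098, -0.0040, -0.02 and 0.0081, in order of time. Srl, which encodes the calcium-binding protein sarcalumenin of the reticulum, was 3.37-fold, 3.87-fold, 2.72-fold and 3.03-fold higher at 3, 6, 12 and 24 h (adjusted p between 1.98e-07 and 5.08e-06). At 24 h it was at 33.7 to 65.2 CPM against 14.7 to 21.4 CPM on PTU alone. Its response was smaller in BATKO mice by 1.78 on the log2 scale (-1.78, adjusted p = 0.00168), where 4 of the list differed upward and 7 downward, beside 12.3% of all tested genes called. The largest downward difference of the list in that comparison was that of Camk2b, a calmodulin kinase gene (-2.29, adjusted p = 0.00922).

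Adrb3, the beta-3 adrenergic receptor through which cold acts on brown fat, was 3.47-fold lower at 6 h, 9.32-fold lower at 12 h and 3.54-fold lower at 24 h (adjusted p between 1.36e-06 and 0.000754). The cAMP phosphodiesterase genes Pde3a and Pde3b were 3.75-fold and 3.02-fold lower at 24 h (adjusted p = 2.09e-07 and 2.51e-07). Plcb1, which encodes a phospholipase that makes IP3, was 2.25-fold lower at 6 h and 2.48-fold lower at 12 h (adjusted p = 6.12e-05 and 1.41e-05), at the times when Itpr2 was higher. Tpcn1, an endolysosomal channel, was 1.56-fold higher at 3 h and 1.79-fold higher at 12 h, and Slc8b1, the mitochondrial sodium-calcium exchanger, 2.09-fold higher at 6 h. At 24 h Camk2b was 6.21-fold and Cacna1s, the skeletal muscle calcium channel, 3.33-fold higher (adjusted p = 3.90e-05 and 0.0321), beside uncalled log2 differences of 1.09 for Acta1 and 0.95 for Ckm. Their part in these changes was not tested. Jph1, which holds muscle membranes together, was 2.59-fold lower at 3 h (adjusted p = 0.0112), where Acta1 differed by -2.01 on the log2 scale without passing.

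In the cold, 18 of 64 tested genes of the list were higher and 9 lower in CTRL mice, where 49.1% of all tested genes were called, and 16 and 9 in BATKO mice, where 40.3% were. These counts are no result about the list, being near or under the background. Letm1, a cation exchanger of the inner mitochondrial membrane, was 8.04-fold higher in CTRL mice (409 to 417 CPM against 35.5 to 63.8 CPM) and 3.94-fold higher in BATKO mice (adjusted p = 8.25e-09 and 2.24e-07). Its response differed between the genotypes (log2 -1.03, adjusted p = 0.0373), as did its level at 4 °C (log2 -0.66, adjusted p = 0.0484). Smdt1, a subunit that the mitochondrial calcium uniporter needs, was 3.08-fold and 2.07-fold higher, and Tpcn2, a lysosomal channel, 5.10-fold and 2.36-fold higher. Camk2b was 7.32-fold lower in BATKO mice (adjusted p = 8.58e-05). Cacnb1, a calcium channel subunit of skeletal muscle, was 4.82-fold and 4.47-fold lower, beside uncalled log2 differences of -2.25 and -1.74 for Acta1 and -2.35 and -1.74 for Ckm, and the plasma membrane pump gene Atp2b4 2.28-fold lower in CTRL mice.

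On HFD, 2 of 63 tested genes of the list were called in CTRL mice, near the 3.94% of all tested genes. They were Adrb3 (2.33-fold higher, adjusted p = 0.00688) and Calm3, a calmodulin gene (1.51-fold higher, adjusted p = 0.0216).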

How the data were processed

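RNA of BAT was extracted with Trizol, libraries were made with the Lexogen SENSE total RNA kit, and the authors aligned reads to GRCm38 with Bowtie (Bowtie2 2.3.2.2 in the submitters' processing notes), removed alignments of low mapping quality and counted reads per gene with htseqcount. The deposited values are raw counts per gene. The annotation and strand setting are not given in the sources used here. No pair of mice within a group matched within sampling noise (lowest chi-square per degree of freedom 7.47 over 91 pairs).

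Genes with a mean TMM-normalized count above 10 over the mice of a fit were tested with the quasi-likelihood test of edgeR 4.0.16 (R 4.3.3, limma 3.58.1), with Benjamini-Hochberg adjustment over all genes. The fits held the 20 WT mice, the 30 TH mice, the 16 temperature mice and the 13 diet mice, with no covariate, and gave 16 comparisons. DESeq2 1.42.0 was an alternative. Other alternatives changed the normalization, the count limit, the mice fitted or the muscle covariate, or left out 1 mouse. In simulated data, 200 genes with a mean count above 50 were changed, either 2-fold or 4-fold. The 2-fold changes were recovered at 88% for WT at 24 h and 66% for CTRL mice in the cold. Of all calls there, 5.05% and 6.86% were false. No gene with a lower count was changed, so that the recovery of such genes was not measured. Levels per length divide CPM by exon bases of GENCODE M21, in which 55327 of 55341 symbols were found. Mice were grouped by their labels. All 10 members are named, and of the wider calcium list some or all of the 3 called genes with the largest change per direction and comparison. The members and lists were chosen with earlier results of these data known.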

Additional observations from a re-analysis of the deposited data

Results flagged for a closer look

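In 8 of 119 groups of 4 or 5 mice, the highest or lowest mouse lay further from the others than Dixon's 95% limit allows, where about 1 in 20 groups (5.95 here) would do so by chance. The gap is given as a share of the range of the group. Among CTRL mice on HFD, Atp2a1 was at 45.9 CPM in mouse 9 and at 0 to 7.53 CPM in the others (gap 0.836), and Atp2a2 at 214 CPM in mouse 7 and 248 to 255 CPM in the others (gap 0.839). Atp2a3 was at 11.8 CPM in BATKO mouse 8 at 24 h after TH and at 8.87 to 9.47 CPM in the others (gap 0.794), and at 4.76 CPM in WT mouse B24 at 24 h beside 5.16 to 5.20 CPM (gap 0.891). Itpr1 was at 92.5 CPM in WT mouse B27 at 24 h, where the others had 108 to 109 CPM (gap 0.933). Itpr2 was at 158 CPM in BATKO mouse 4 on PTU alone and at 80.2 to 100 CPM in the others (gap 0.738). Sln was at 3.21 CPM in BATKO mouse 3 on PTU alone beside 0 to 0.293 CPM (gap 0.909), and at 3.79 CPM in WT mouse B19 at 12 h beside 0 to 0.549 CPM (gap 0.855).

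The 24 h response of Itpr2 to TH differed between the genotypes, by -1.12 on the log2 scale (BATKO minus WT, tested as an interaction in edgeR, adjusted p = 0.00590). It was higher in 4 of 4 WT mice than in every WT mouse on PTU alone, while the BATKO groups overlapped. Without BATKO mouse 4, the one with the highest level on PTU alone, the difference was -0.94 (adjusted p = 0.0152).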

How the results depend on the processing

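No paired analysis was possible because the groups compared hold different mice, and the mouse numbers that recur between experiments or genotypes belong to different animals. No result changed its direction while called. The number of called members at 3 h was 2, and became 1 with a mean count limit of 50 and 0 with the level of Acta1 and Ckm in the fit, with 1 to 2 when 1 mouse was left out. At 12 h it was 4, and 4 to 6 with 1 mouse left out (6 without B19). At 24 h it was 4, and 6 with the level of Acta1 and Ckm in the fit (Atp2a1 and Sln added), and 1 to 5 with 1 mouse left out (1 without WT PTU mouse B2, 2 without B27). For the difference between genotypes at 24 h it was 1, and became 2 with DESeq2 and 2 with the limit of 50, with 1 to 2 when 1 mouse was left out. Without a count limit, CTRL mice on HFD had 3 called members in place of 0, and the difference between genotypes in the HFD response had 1 (Atp2a1, adjusted p = 0.0488), where 216 genes in all were called in place of 0. Where leaving out a BATKO mouse on chow left 1 mouse, that mouse is assumed to vary like the other groups. The alternative without mice above 1000 CPM of Acta1 was chosen after seeing the data. It touched the temperature experiment alone, since no other mouse was above that level. With it, the genes called for cold in BATKO mice became 3494 in place of 5340, those between genotypes 189 in place of 286 at 4 °C and 0 in place of 1 at 30 °C, and those of the interaction 17 in place of 149. The causes of these changes were not tested. Over all genes, DESeq2 called 650 against 286 genes between genotypes at 4 °C, 8 against 1 at 30 °C, 656 against 149 in their interaction, 872 against 509 for HFD in CTRL mice and 226 against 9 in BATKO mice. With only the compared groups in the fit, 61 genes were called between genotypes at 4 °C and 321 for HFD in CTRL mice. With 1 mouse left out, the counts that moved by over 1.5 times lay between 53 and 565 at 4 °C, 5 and 907 in the interaction and 166 and 255 for HFD in CTRL mice. The others were 684 at 3 h (1195 with all mice), 1 for TH in BATKO mice (0), 1 to 10 between genotypes on HFD (0) and 0 to 1 for HFD in BATKO mice (9). Without a count limit, HFD called 1280 genes in CTRL and 336 in BATKO mice. With 0 to 25 reads per mouse, Ryr2 was too shallowly counted to be tested.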
